A study of Rattus norvegicus with 6 samples.

Results

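Bulk RNA sequencing of rat dorsal root ganglia was used to follow 8 genes of the myelinating Schwann cell, Mbp, Pmp22, Pmp2, Prx, Mag, Ncmap, Egr2 and Cldn19. They were chosen by name from the deposited table of 22864 genes, and all 8 were found and passed the filter on low counts, as did 15531 genes in all. Each library came from the L4 to L6 ganglia of the injured side in wild-type male rats, and there were 3 groups of 2 libraries. Sham+Veh rats were anaesthetised without a ring and received vehicle (Veh). CPIP+Veh rats had 1 hind limb ligated by the ankle with an O-ring for 3 h, the chronic post-ischaemia pain model, and received vehicle, and CPIP+ETA rats had the ring and received etanercept (ETA), a decoy receptor that captures TNF. All groups were anaesthetised, all injections were intrathecal and daily from day 2, and tissue was taken on day 7. Libraries are named by group and number. The rats' age, strain, the vehicle's composition and whether a library held 1 animal or several are not given in the labels, so p-values rest on the spread between libraries, which may be technical.

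Myelinating Schwann cells wrap the larger axons that run through the ganglion and its roots, and each cell turns its membrane into a compact spiral sheath that speeds conduction. The transcription factor Egr2, also known as Krox20, works with Sox10 to switch on the genes for the sheath's proteins and lipids. After nerve damage such cells can lower these genes and take on a repair state marked by Jun. Compact myelin holds Pmp22, Mbp and Pmp2, the inner membrane facing the axon holds Mag, and Prx and Cldn19 serve the outer surface and the junctions between the wraps.

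The proximal promoters of 4 of the genes are shown. Pmp22, Cldn19 and Mag had gaps in the same directions between the libraries of each group and Egr2 did not, as described below. Mbp, Prx and Ncmap had such gaps and windows too but are not printed, so the 4 do not stand for all. Each window shown is the 250 bases before the start of transcription, on the strand of the gene. It is from RefSeq's GRCr8 assembly, which is not the build of the counts. The windows lie at chr10:48294682-48294931 (plus strand) for Pmp22, chr5:138148325-138148574 (plus strand) for Cldn19, chr1:95291045-95291294 (minus strand) for Mag and chr20:21054442-21054691 (minus strand) for Egr2. Capitals mark matches to 3 motifs searched on both strands: GTGGGCG, the core recognised by EGR proteins, ACAAAG, a core recognised by SOX proteins, and the CArG box recognised by SRF.
Pmp22: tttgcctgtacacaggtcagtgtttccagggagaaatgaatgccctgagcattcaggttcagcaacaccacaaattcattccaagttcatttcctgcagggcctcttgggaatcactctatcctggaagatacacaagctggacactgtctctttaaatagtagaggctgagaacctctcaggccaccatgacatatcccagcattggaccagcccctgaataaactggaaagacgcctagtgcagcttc
Cldn19: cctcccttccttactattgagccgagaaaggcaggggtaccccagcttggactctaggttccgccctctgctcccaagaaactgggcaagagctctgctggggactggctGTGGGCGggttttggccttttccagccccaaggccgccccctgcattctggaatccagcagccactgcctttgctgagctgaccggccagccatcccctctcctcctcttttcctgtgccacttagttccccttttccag
Mag: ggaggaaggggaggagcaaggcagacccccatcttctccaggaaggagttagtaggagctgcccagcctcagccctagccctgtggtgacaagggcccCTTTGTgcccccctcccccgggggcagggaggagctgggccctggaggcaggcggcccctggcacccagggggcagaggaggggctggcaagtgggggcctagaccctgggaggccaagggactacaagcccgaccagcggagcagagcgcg
Egr2: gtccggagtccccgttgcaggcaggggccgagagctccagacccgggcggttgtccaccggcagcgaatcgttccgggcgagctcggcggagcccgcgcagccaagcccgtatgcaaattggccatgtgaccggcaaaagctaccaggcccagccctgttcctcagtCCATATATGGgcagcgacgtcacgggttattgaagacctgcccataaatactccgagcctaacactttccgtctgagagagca
The Cldn19 window held 1 EGR core, 140 to 134 bases before the start, and a core of this kind was present in 6.27% of the 33469 promoter windows of the same length. Mag held 1 SOX core on the opposite strand, from -152 to -147, a motif found in 16.3% of windows. Egr2 held 1 CArG box, from -83 to -74, a motif found in 1.5% of windows, and Pmp22 held no match. Windows were given for 7 of the 8 genes, and of the other 3, Mbp had a pair of windows, of which 1 held a SOX core and 1 held no match, and Prx and Ncmap held no match. The matches are letters in a window and show neither binding nor use, and the motifs were chosen with these sequences in view.

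In 7 of the 8 genes the libraries of each group parted in the same way. Sham+Veh 2 lay above Sham+Veh 1, CPIP+Veh 1 above CPIP+Veh 2 and CPIP+ETA 2 above CPIP+ETA 1. The higher library of each group was thus the same for all 7 genes. The lowest library was CPIP+ETA 1 for these 7 genes, and Egr2 was the exception in both respects. Over all genes tested, 14.1% had the 3 gaps in these directions and 21.1% were lowest in CPIP+ETA 1. Both traits were read from the 8 genes themselves, so these shares give a scale and are not a test of the 8. No group stood apart from another for any of the 8 genes. Of all genes, 37.1% had groups apart for CPIP+Veh against Sham+Veh, 32.6% for CPIP+ETA against CPIP+Veh and 35.7% for CPIP+ETA against Sham+Veh.

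Pmp22, a tetraspan protein of compact myelin whose dosage is altered in the commonest inherited neuropathy in humans, had the most counts of the 8. Levels are counts scaled to a common library total (CPM) after TMM normalisation, which adjusts for library size and composition. They are not divided by transcript length, so they compare a gene between libraries and not genes with each other. Pmp22 stood at 2510 and 3140 CPM in Sham+Veh, 3260 and 2760 with CPIP and vehicle, and 2150 and 3320 with CPIP and etanercept. The CPIP+ETA libraries therefore held both the lowest and the highest value of the series.

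Mbp, the cytoplasmic protein that compacts the membrane layers, stood at 1890 and 2290 CPM in the sham libraries, 2090 and 1820 in CPIP+Veh, and with CPIP+ETA 1480 and 2120. Its group means were in the order Sham+Veh (2090 ± 290, SD, n = 2), CPIP+Veh (1950 ± 190) and CPIP+ETA (1800 ± 460), and each neighbouring pair of groups overlapped. Pmp2, a fatty-acid-binding protein of peripheral myelin, spread most. It stood at 170 and 276 CPM in Sham+Veh, 261 and 202 with CPIP and vehicle, and 129 and 236 with CPIP and etanercept, a 2.14-fold range between the extreme libraries. The ranges of the other 7 genes lay between 1.39-fold for Prx and 1.59-fold for Egr2.

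Prx, a scaffold protein that links the outer Schwann cell membrane to its surroundings, stood at 545 and 689 CPM in the sham libraries, 684 and 556 in CPIP+Veh, and with CPIP+ETA 495 and 651. Cldn19, a claudin of the tight junctions within the sheath, stood at 96.8 and 131 CPM in Sham+Veh, 127 and 94.9 with CPIP and vehicle, and 88.5 and 125 with CPIP and etanercept. For both genes Sham+Veh 2 was the highest library, followed by CPIP+Veh 1 and CPIP+ETA 2.

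Ncmap, a small membrane protein of non-compact myelin, stood at 55.9 and 64.8 CPM in the sham libraries, 66.4 and 56.1 in CPIP+Veh, and with CPIP+ETA 46 and 68.5. Mag, the adhesion molecule on the membrane next to the axon, stood at 20.7 and 25.9 CPM in Sham+Veh, 29.5 and 23.4 with CPIP and vehicle, and 20.4 and 26.8 with CPIP and etanercept. Mag was the only one of the 8 with CPIP+Veh 1 as its highest library, and its lowest values, in CPIP+ETA 1 and Sham+Veh 1, were nearly equal.

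Egr2, the transcription factor of the group, stood at 18.1 and 24.4 CPM in the sham libraries, 17 and 27.1 in CPIP+Veh, and with CPIP+ETA 21.9 and 25.8. It shared the upward gap from library 1 to library 2 in Sham+Veh and CPIP+ETA, but in CPIP+Veh it was highest where the other 7 were low and lowest where they were high. The Pearson correlation of Egr2 with the mean of the other 7 genes, over the 6 libraries and given as a description, was 0.03. For each of the 7 against the mean of its fellow genes, Egr2 included, it was 0.88 (Mag) to 0.98 (Pmp22). Egr2 was counted 334 to 537 times per library, beside 383 to 582 times for Mag, and its counting error was at most 5.47%.

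**Figure D1:**
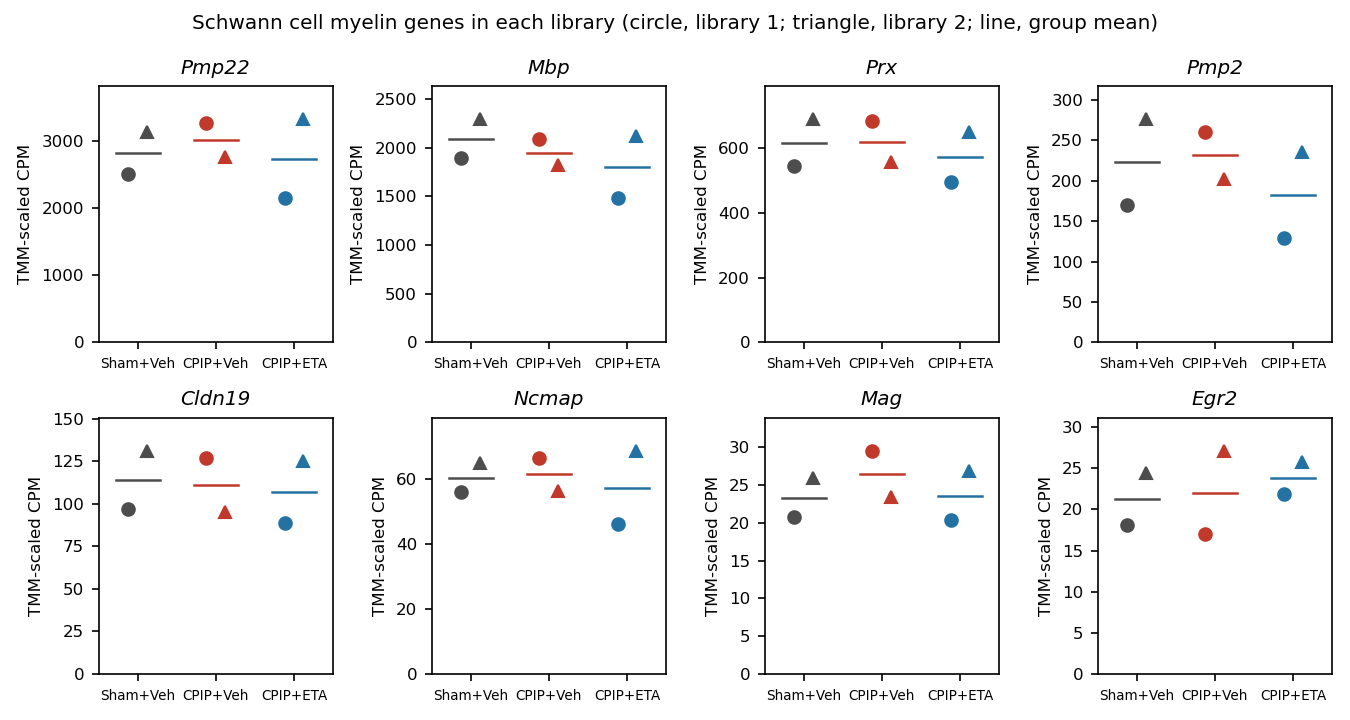
Level of each of the 8 myelin genes (vertical axis, TMM-scaled CPM from 0) in the 3 groups, with a circle for library 1, a triangle for library 2 and a line for the group mean of 2 libraries. In 7 genes the triangle lies above the circle in Sham+Veh and CPIP+ETA and below it in CPIP+Veh; in Egr2 it lies above in all 3 groups.

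On the log2 scale, the median over the 8 genes of the gap between library 2 and library 1 was 0.33 in Sham+Veh, -0.27 in CPIP+Veh and 0.51 in CPIP+ETA. These are medians of signed gaps, and over all genes tested the signed medians were 0.004, 0.002 and 0 in the same order. Without regard to sign, the median gap over all genes was 0.11 in Sham+Veh, 0.11 in CPIP+Veh and 0.13 in CPIP+ETA. The smallest absolute gap among the 8 genes was 0.21, 0.20 and 0.23 in these groups. The Pmp2 gaps of 0.70 in Sham+Veh and 0.87 in CPIP+ETA were matched or exceeded in size by 5.4% and 4.6% of all genes. For Egr2 in CPIP+Veh, where the gap was 0.67, the share was 6.5%. These were the smallest shares among the 8 genes, and other gaps were more ordinary. The share was 26.1% for Ncmap in Sham+Veh, 29.3% for Mbp in CPIP+Veh and 30% for Egr2 in CPIP+ETA. In all 8 genes the largest gap within a group exceeded the largest difference between group means, which held for 72.6% of all genes tested. Counting error was at most 5.47% for any of the 8 in any library, well under these gaps.

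The first comparison, CPIP+Veh against Sham+Veh, asks what the ischaemia model changed. None of the 8 genes passed. edgeR's quasi-likelihood test called 0 of 8 at an adjusted p under 0.05, against 0.0193% of all 15531 genes. An unadjusted p under 0.05 was found for 0 of 8 (4.94% of all genes, 2.34% higher and 2.59% lower). DESeq2 (0.315% of all genes) and limma-voom (2 of all genes) each called 0 of 8. Fold changes are on the log2 scale, and their SE is from the edgeR fit. They ran from -0.10 (SE 0.18, 95% interval -0.52 to 0.33) for Mbp to 0.18 (SE 0.18, -0.25 to 0.61) for Mag, with adjusted p-values of 0.957 to 0.998. The median was 0.04, beside 0.00 (-0.003) over all genes. The widest interval was that of Pmp2, -0.72 to 0.83, so changes of Pmp2 within those bounds were not distinguished from none with 2 libraries per group. The libraries of the groups overlapped for all 8 genes, while 37.1% of all genes had groups that did not overlap.

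Leaving out 1 library turned this median. The loss of Sham+Veh 1 gave -0.14 and that of Sham+Veh 2 gave 0.23. The loss of CPIP+Veh 1 gave -0.12 and that of CPIP+Veh 2 gave 0.15. Without Sham+Veh 2 all 8 genes lay above sham, and without Sham+Veh 1 only Mag did, at 0.04. No adjusted p of the 8 was under 0.856 in any of these fits.

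The second comparison, CPIP+ETA against CPIP+Veh, asks what etanercept changed in the model. Here 7 of the 8 genes had a log2 fold change below 0 and Egr2 lay above it, and none passed. edgeR called 0 of 8 at an adjusted p under 0.05 (0% of all genes). An unadjusted p under 0.05 was found for 0 of 8 (5.15% of all genes, 2.42% higher and 2.73% lower). DESeq2 (0.135% of all genes) and limma-voom (0 of all genes) called 0 of 8. The values ran from -0.35 (SE 0.32, 95% interval -1.12 to 0.43) for Pmp2 to 0.11 (SE 0.24, -0.46 to 0.68) for Egr2, with a median of -0.12 beside 0.00 (-0.002) over all genes and adjusted p-values of 0.94 to 0.982. Group libraries overlapped for all 8 genes, while they did not for 32.6% of all genes. This comparison and the first share the CPIP+Veh libraries, so their values are not independent.

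The direction rested on CPIP+ETA 1. Without it all 8 genes lay above CPIP+Veh, with a median of 0.13 and values of 0.02 to 0.23. Without CPIP+ETA 2 all 8 lay below, with a median of -0.39 and values of -0.84 for Pmp2 to -0.01 for Egr2, and the smallest adjusted p was 0.511. Without CPIP+Veh 1 the median was 0.00 (0.001), with 4 genes on each side of 0, and without CPIP+Veh 2 it was -0.25.

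CPIP+ETA against Sham+Veh compares the treated model with animals that had no ring. edgeR called 0 of 8 (0.0193% of all genes). An unadjusted p under 0.05 was found for 0 of 8 (6.37% of all genes, 2.64% higher and 3.73% lower). DESeq2 (0.322% of all genes) and limma-voom (1 of all genes) called 0 of 8. Values ran from -0.29 (SE 0.32) for Pmp2 to 0.17 (SE 0.24) for Egr2, with a median of -0.09 beside 0.00 (-0.002) over all genes. Mbp, with the lowest p of the 8, had -0.22 (SE 0.18, 95% interval -0.64 to 0.21, adjusted p = 0.889). Libraries overlapped for all 8 genes, while 35.7% of all genes had groups apart. The median was 0.16 without CPIP+ETA 1 and -0.375 without CPIP+ETA 2, and the loss of Sham+Veh 1 or 2 gave -0.225 or 0.115.

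**Figure D2:**
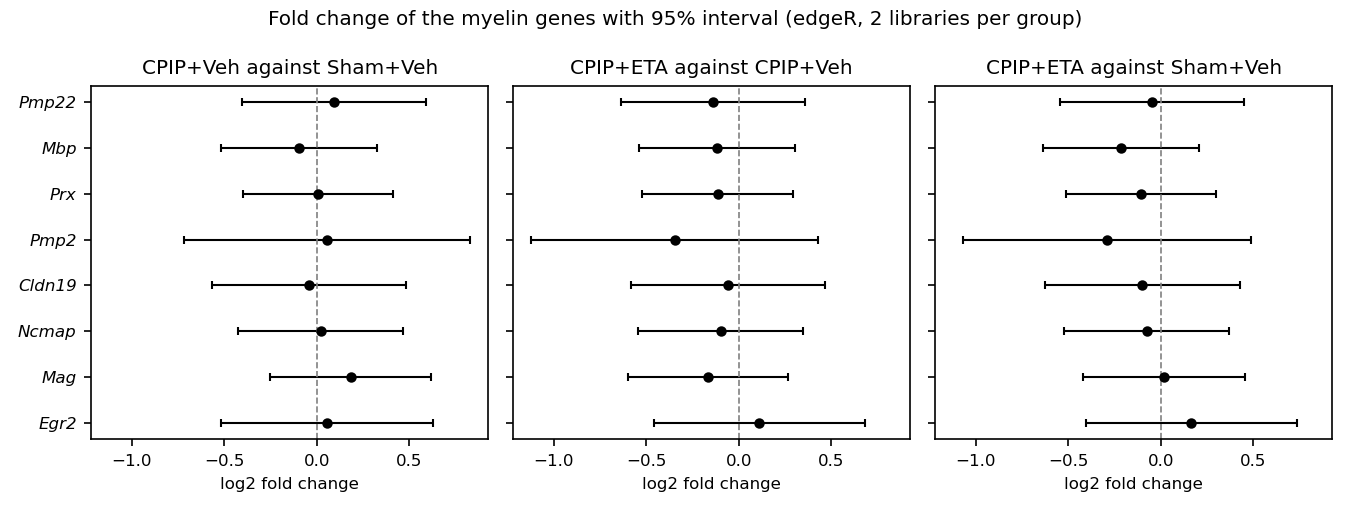
Log2 fold change (horizontal axis) of each gene in the 3 comparisons, with points for the edgeR estimate from 2 libraries per group and bars for its 95% interval. Every interval includes 0, and that of Pmp2 is the widest in each panel.

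**Figure D3:**
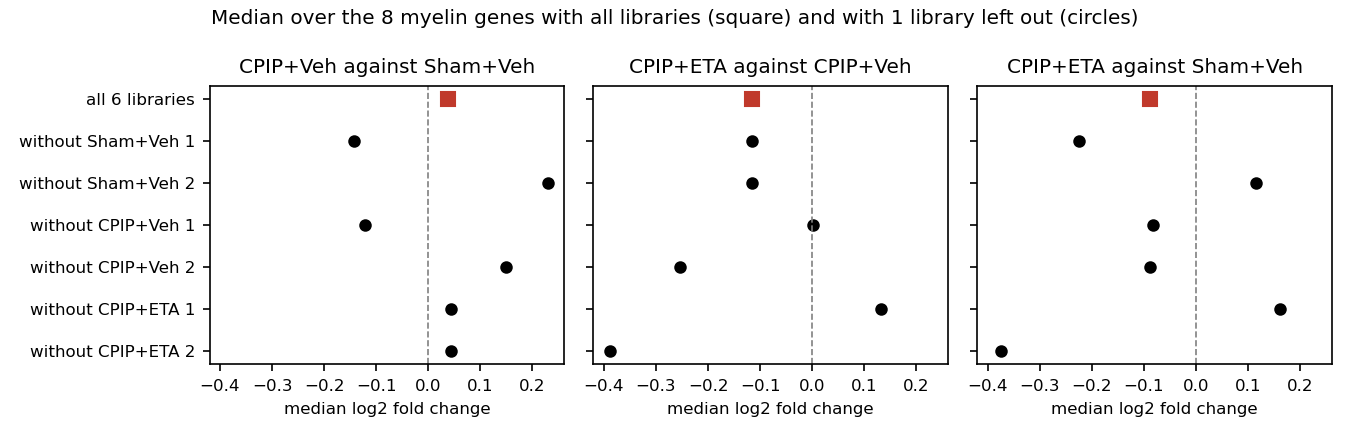
Median log2 fold change over the 8 genes (horizontal axis) with all 6 libraries (square) and with 1 library left out (circles), in the 3 comparisons. The median changes sign in every panel, and in the second it runs from -0.39 without CPIP+ETA 2 to 0.13 without CPIP+ETA 1.

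Most other genes of the sheath had within-group gaps in the directions seen in the 7 genes. In a list of 19 further myelin proteins and lipid enzymes, 15 (78.9%) had the 3 gaps in the same directions, beside 14.1% of all genes. Lowest in CPIP+ETA 1 were 17 (89.5%), beside 21.1% of all genes. Summed over the list, the level was 3791 and 4164 CPM in the sham libraries, 4087 and 3825 in CPIP+Veh, and with CPIP+ETA 3220 and 4113. The 8 genes themselves summed to 5303 and 6644, 6530 and 5539, and 4424 and 6571 CPM, or 0.439% to 0.664% of a library's counts.

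By edgeR 0 of these 19 genes passed in any comparison (smallest adjusted p = 0.809). For CPIP+Veh against Sham+Veh the median log2 fold change was 0.00 (-0.003), and the lowest p-values were those of Cnp, a myelin phosphodiesterase (0.11, SE 0.089), the chaperone Cryab (-0.15, SE 0.15) and the connexin Gjc3 (0.30, SE 0.32). For CPIP+ETA against CPIP+Veh the median was -0.12, with 16 of 19 below 0. An unadjusted p under 0.05 was found for 1 of 19, beside 5.15% of all genes. Cnp had -0.21 (SE 0.089), Itgb4, the laminin receptor subunit of the outer Schwann cell membrane, -0.25 (SE 0.14), and the tetraspanin Cd9 -0.15 (SE 0.096). Against Sham+Veh, CPIP+ETA had a median of -0.11, with Itgb4 at -0.30 (SE 0.14), Gal3st1, the enzyme that makes sulfatide, at -0.27 (SE 0.16) and Cd9 at -0.14 (SE 0.096).

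Genes that control myelination had those gaps about as often as all genes tested. Of 17 regulators, 2 (11.8%) had the 3 gaps in the same directions, beside 14.1% of all genes. Lowest in CPIP+ETA 1 were 7 (41.2%), beside 21.1% of all genes. Their summed level stayed between 1568 and 1684 CPM in the 6 libraries. In that sum, Adam22 (304 to 364 CPM) and Nrg1 (175 to 209 CPM) were highest in CPIP+ETA 1. Sox10, the partner of Egr2, stood at 110 and 110 CPM in Sham+Veh, 111 and 111 with CPIP and vehicle, and 110 and 125 with CPIP and etanercept. It was level in 5 libraries in which Pmp22 ran from 2150 to 3260 CPM. These are levels in bulk tissue, and that of Sox10 in myelinating cells alone was not measured. By edgeR 0 of 17 passed in any comparison. At an unadjusted p under 0.05 there were 2 of 17 in the first, 0 in the second and 1 in the last. The shares of all genes were 4.94%, 5.15% and 6.37%. Against sham, CPIP+Veh was lower in Erbb2, a subunit of the neuregulin receptor, at -0.34 (SE 0.12, adjusted p = 0.938), in the Hippo pathway co-activator Wwtr1 at -0.33 (SE 0.13) and in the adhesion receptor Adgrg6 at -0.21 (SE 0.12). With etanercept against vehicle, Erbb2 had 0.27 (SE 0.12), Nab2, a co-regulator that binds EGR proteins, 0.27 (SE 0.13) and Pou3f1, a transcription factor that precedes Egr2, -0.31 (SE 0.16). CPIP+ETA against sham had 0.40 (SE 0.13, adjusted p = 0.698) for Nab2, -0.30 (SE 0.13) for Pou3f2 and -0.18 (SE 0.13) for Wwtr1.

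Nab2 stood at 14.5 and 14.3 CPM in the sham libraries, 14.4 and 17 in CPIP+Veh, and with CPIP+ETA 17.1 and 20.8. Both etanercept libraries lay above the other 4, by a margin that is small between CPIP+ETA 1 and CPIP+Veh 2. Over all genes tested, 15.7% had both CPIP+ETA libraries above both of CPIP+Veh, and 17.2% had them above both of Sham+Veh.

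Genes of the repair and immature Schwann cell state formed a list of 15, of which 13 were tested. Of these, 0 had the 3 gaps in those directions, beside 14.1% of all genes. Lowest in CPIP+ETA 1 were 2 (15.4%), beside 21.1% of all genes. The sum ranged from 1810 to 1868 CPM. Most of it came from Ngfr (692 to 754 CPM), L1cam (537 to 600 CPM) and Ncam1 (257 to 276 CPM), so it says little about the less abundant genes. Gdnf and Olig1, markers of the repair state, were too low to test, and each was at 0 counts in 2 libraries. Jun, the transcription factor that opposes Egr2, stood at 119 and 102 CPM in Sham+Veh, 105 and 154 with CPIP and vehicle, and 95.3 and 116 with CPIP and etanercept. Its highest library, CPIP+Veh 2, was also the highest for Egr2. By edgeR 0 of 13 passed in any comparison (lowest adjusted p = 0.531), and in each comparison 1 of 13 had an unadjusted p under 0.05. The shares of all genes under it were 4.94%, 5.15% and 6.37% in the 3 comparisons. In the first comparison Egr1, an immediate early gene of the same family as Egr2, had -0.93 (SE 0.25, adjusted p = 0.897), Sox2 had -0.16 (SE 0.092) and Jun 0.23 (SE 0.19). In the second, the receptor Notch1 had 0.21 (SE 0.062, adjusted p = 0.938), Sox2 0.22 (SE 0.091) and Egr1 0.53 (SE 0.26). Against sham, CPIP+ETA had 0.27 (SE 0.062, adjusted p = 0.531) for Notch1, -0.08 (SE 0.048) for the neurotrophin receptor Ngfr and -0.39 (SE 0.25) for Egr1.

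Pmp22, Prx and Egr2 are among the genes mutated in inherited demyelinating neuropathy in humans, and 10 further such genes were measured. By edgeR 0 of 10 passed in any comparison, and 4 of 10 (40%) had the shared gaps, beside 14.1% of all genes. Mtmr2, a lipid phosphatase, stood at 117 and 118 CPM in the sham libraries, 112 and 111 in CPIP+Veh, and with CPIP+ETA 130 and 136, and so lay highest in both etanercept libraries. Its log2 fold change was 0.26 (SE 0.051, adjusted p = 0.857) against CPIP+Veh and 0.19 (SE 0.051, adjusted p = 0.629) against Sham+Veh. For the model against sham it was -0.07 (SE 0.051). Of all genes tested, 15.7% had both CPIP+ETA libraries above those of CPIP+Veh and 17.2% above those of Sham+Veh. The other genes with the lowest p in the first comparison were the elastic fibre protein Fbln5 (-0.11, SE 0.11) and Litaf (0.12, SE 0.12), and in the second Litaf (-0.18, SE 0.12) and Fbln5 (0.11, SE 0.11). Against sham, CPIP+ETA had -0.04 (SE 0.069) for Arhgef10 and 0.04 (SE 0.066) for the mitochondrial protein Gdap1.

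Genes of the node of Ranvier and the paranode, many of them expressed by the neuron, were summed at 3875 to 4352 CPM, with CPIP+ETA 1 highest. Of 13 genes 1 (7.69%) had the shared gaps, beside 14.1% of all genes, and 0 were lowest in CPIP+ETA 1, beside 21.1%. Of these 13 genes edgeR called 0 in any comparison. In the first comparison the potassium channel Kcna2 had -0.12 (SE 0.064), Cntn1 0.10 (SE 0.059) and Cntnap1 -0.08 (SE 0.078). In the second Kcna2 had 0.15 (SE 0.064), the sodium channel Scn8a 0.22 (SE 0.10) and Kcna1 0.17 (SE 0.086). In the last the node anchor Ank3 had 0.13 (SE 0.048), Kcna1 0.17 (SE 0.086) and Scn8a 0.13 (SE 0.10).

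Enzymes and regulators of cholesterol and fatty acid synthesis, which supply the sheath's lipids, summed to 4289 and 4667 CPM in Sham+Veh, 4457 and 4578 with CPIP and vehicle, and 4326 and 4727 with CPIP and etanercept. Of 18 tested genes 6 (33.3%) had the shared gaps, beside 14.1% of all genes, and edgeR called 0 in any comparison (smallest adjusted p = 0.505). Srebf2 and Srebf1, transcription factors that drive these genes, had 0.18 (SE 0.058) and -0.15 (SE 0.053) in the first comparison, and Fdps, an enzyme of isoprenoid synthesis, 0.13 (SE 0.055). With etanercept against vehicle Srebf1 had -0.11 (SE 0.054), the ceramide synthase Cers2 -0.075 (SE 0.092) and Fdps -0.04 (SE 0.055). Against sham, CPIP+ETA had -0.26 (SE 0.054) for Srebf1, 0.16 (SE 0.058) for Srebf2 and -0.295 (SE 0.16) for the sterol enzyme Lss.

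Markers of other cells showed what else differed between the libraries. Over 8 sensory neuron markers the sum was 42080 CPM in CPIP+ETA 1 and 37400 to 39150 CPM in the other 5 libraries. Nefm, Nefl and Nefh led this sum, at 13000, 9570 and 9200 CPM in CPIP+ETA 1, so it says little about the less abundant markers. Tubb3 and Uchl1 were also highest in that library, and Snap25 was level with Sham+Veh 1 at 1290 CPM. Rbfox3 (82.7 CPM) and Prph (2370 CPM) were not highest there, with 84.6 CPM in Sham+Veh 1 and 2450 CPM in CPIP+Veh 2. Of the 8, 0 had the shared gaps, beside 14.1% of all genes. In Sham+Veh the library low in myelin genes had the higher neuron sum (39150 beside 37580 CPM). In CPIP+Veh it had the lower (37400 beside 39100 CPM). Over 6 fibroblast markers it was 2300 CPM in CPIP+ETA 1 and 2844 to 3863 CPM elsewhere, and 6 of 6 were lowest in that library. In Sham+Veh the fibroblast markers summed to 3619 and 3863 CPM, with CPIP+Veh to 2844 and 3475, and with CPIP+ETA to 2300 and 2927, so in CPIP+Veh the library high in myelin genes was low in them. Over 8 satellite glia markers the sum was 4705 to 5274 CPM, most of it from Apoe at 3950 to 4650 CPM, which was lowest in CPIP+ETA 2. Of the 8, 2 (25%) had the shared gaps, beside 14.1% of all genes. Lowest in CPIP+ETA 1 were 4 (50%), beside 21.1% of all genes, so the sum says little about the less abundant markers. Among the smaller lists, 3 red blood cell markers summed to 261 and 155 CPM in CPIP+ETA, above the 22.43 to 97.6 CPM of the other 4 libraries. The 5 skeletal muscle markers summed to 9.269 CPM in CPIP+ETA 1 and 14.4 to 75 CPM elsewhere, with 4 of 5 lowest in that library. Macrophage markers (7 genes) summed to 189.2 and 197 CPM in CPIP+ETA and 136.4 to 164 CPM in the other 4 libraries. Of these, Cd163 stood at 23.8 and 17 CPM in CPIP+ETA and 5.21 to 10 CPM elsewhere. Mrc1 stood at 41.8 and 53 CPM, and 24 to 33.6 CPM elsewhere. Itgam was also higher in both etanercept libraries. Of all genes, 15.7% had both etanercept libraries above those of CPIP+Veh and 17.2% above those of Sham+Veh. Csf1r, C1qa, Cd68 and Aif1 overlapped with the other libraries, and Cd68 (8.52 CPM) and Aif1 (14.4 CPM) were highest in CPIP+Veh 2. Endothelial markers (6 genes) ran from 133.5 to 166.4 CPM, pericyte and smooth muscle markers (6 genes) from 119.4 to 169.8, adipocyte markers (5 genes) from 0.2025 to 7.148 and spinal cord neuron markers (6 genes) from 9.965 to 11.7. The part of these differences in the myelin values was not tested. In bulk tissue, fewer myelinating cells and less RNA of these genes per cell cannot be told apart.

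Markers of oligodendrocytes, the myelinating cells of the central nervous system that also express Mbp, Mag and Cnp, were near 0 for 5 of 9 genes, and the other 4 passed the filter on low counts. Olig2 was at 0 in 5 libraries and 0.0506 CPM in CPIP+Veh 1, Opalin reached at most 0.109 CPM, Mobp 0.253 CPM and Mog 1.08 CPM, in Sham+Veh 1. The sum over 9 markers, 22.67 to 26.83 CPM, came mostly from Myrf (12.6 to 14.8 CPM) and Hapln2 (5.9 to 8.66 CPM), with Ermn at 0.436 to 1.97 CPM and Enpp6 at 1.19 to 1.81 CPM, and Nkx6-2 was at 0 in 3 libraries.

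**Figure D4:**
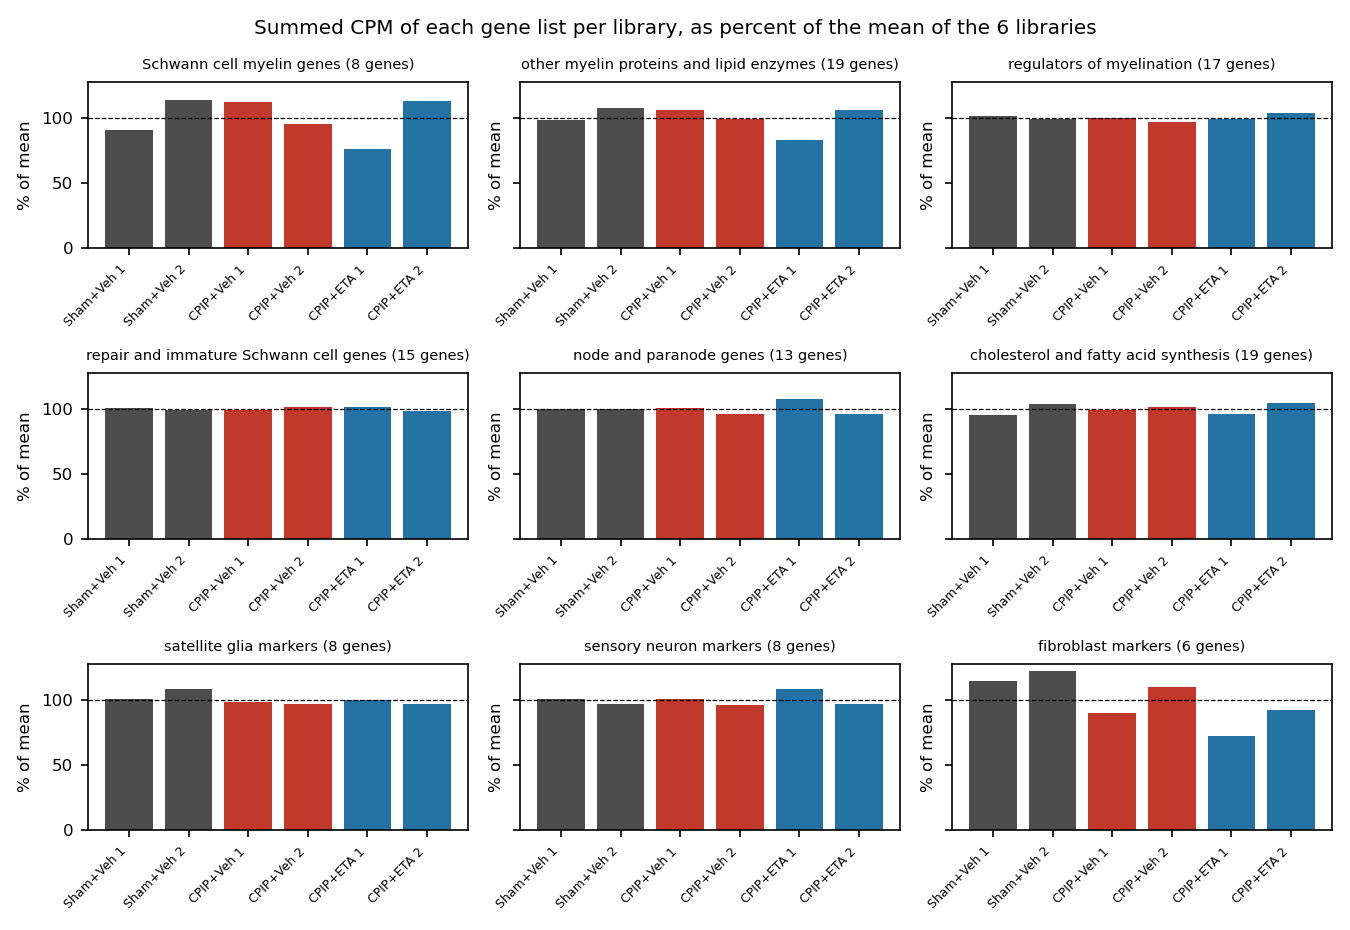
Summed CPM of 9 gene lists in each library (vertical axis, percent of the mean of the 6 libraries, from 0), coloured by group. The 8 myelin genes and the 19 further myelin genes run in parallel and are lowest in CPIP+ETA 1 (75.8% and 83.3%). The sum of the regulators stays between 96.7% and 103.9%. A sum is led by its most abundant genes, such as Apoe among the satellite glia markers.

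The genes most like the 8 were sought among 13304 others of at least 1 CPM by the Pearson correlation, over the 6 libraries, with the mean of the 8 genes' z-scores. The 10 highest were Suz12, Ubxn2a, Mro, Nes, Ssr3, Pllp, Clmn, Tmem263, Anxa4 and Zfp518a, from 0.991 to 0.979. Nes, an intermediate filament protein, stood at 95.1 and 114 CPM in the sham libraries, 113 and 99.7 in CPIP+Veh, and with CPIP+ETA 85 and 120, and Pllp, the myelin protein plasmolipin, at 53.5 and 68.3, 67.2 and 61.3, and 46.3 and 68.1. Suz12, a Polycomb protein, had the 3 gaps in the same directions over a much narrower range of 43.4 to 49.1 CPM. Over 0.9 lay 186 genes, 1.4% of those compared, among them 6 of the 19 further myelin genes and 0 of the 17 regulators. With only 6 libraries many genes reach such values, and the correlation was used to rank genes and was not tested. Leaving Egr2 out of the mean, a choice made after its values were seen, kept Ubxn2a, Nes, Ssr3 and Clmn among the 10.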

How the data were processed

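The data were 6 libraries of rat dorsal root ganglion RNA sequenced on the BGISEQ-500, per the labels' protocols, from preparations with a RIN of at least 8. The authors deposited expected counts, which are estimates and can be fractional. Per the submitters' processing notes the genome build was Rnor_6.0. The sources used here name no aligner, counting program, strand setting or annotation. Columns were assigned by name. Blank values (2907 genes blank in all libraries) were read as 0, and counts were rounded. Totals ran from 18285251 to 19981250. Counting error is a count's Poisson SD as a percent and covers counting only.

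One edgeR 4.0.16 quasi-likelihood fit (R 4.3.3, TMM, filterByExpr with minimum count 10 and total 15) covered all 6 libraries, with group as the only term, 3 residual and 6.64 total degrees of freedom, and Benjamini-Hochberg adjustment over 15531 genes. SE is the log2 fold change over the square root of F. Log2 levels used a prior count of 2. DESeq2 1.42.0 and limma-voom (limma 3.58.1), 3 other scalings, 2 other filters, the 2 groups alone, a replicate block, a threshold of 0.1 and leaving out each library were alternatives. The procedure was tested on simulated data. The 8 genes and the gene lists were chosen with earlier results of these data known. All 8 were described; in the 6 lists of myelin, regulator, repair, neuropathy, node and lipid synthesis genes, the 3 genes with the lowest p per comparison were named, while lists of other cell types were described by their sums, with Sox10, Gdnf, Olig1 and the marker genes named after their values were seen. Some items of these lists are not reported here and were left out of the lists' counts and sums. Promoters were matched by gene identifier. Figures used matplotlib 3.10.9.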

Additional observations from a re-analysis of the deposited data

How the results depend on the processing

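None of the 8 genes passed under any scaling, filter, tool or threshold tried or with any library left out, and under the 9 alternatives that left out no single library (8 with all 6 libraries and 1 with only the 2 groups compared) no log2 fold change of the 8 genes changed sign (72 values per comparison). With 1 library left out, 13 of 48 values changed sign for CPIP+Veh against Sham+Veh, 13 of 48 for CPIP+ETA against CPIP+Veh and 14 of 48 for CPIP+ETA against Sham+Veh; Mag in the first did not. The ranges follow. For CPIP+Veh against Sham+Veh they were Cldn19 -0.26 to 0.20, Egr2 -0.32 to 0.35, Mag 0.007 to 0.35, Mbp -0.23 to 0.053, Ncmap -0.10 to 0.14, Pmp2 -0.25 to 0.45, Pmp22 -0.052 to 0.26, Prx -0.15 to 0.19. For CPIP+ETA against CPIP+Veh they were Cldn19 -0.33 to 0.17, Egr2 -0.18 to 0.49, Mag -0.37 to 0.022, Mbp -0.40 to 0.12, Ncmap -0.41 to 0.16, Pmp2 -0.84 to 0.028, Pmp22 -0.49 to 0.14, Prx -0.33 to 0.074. For CPIP+ETA against Sham+Veh they were Cldn19 -0.36 to 0.14, Egr2 -0.026 to 0.40, Mag -0.19 to 0.21, Mbp -0.50 to 0.030, Ncmap -0.39 to 0.19, Pmp2 -0.79 to 0.11, Pmp22 -0.39 to 0.24, Prx -0.32 to 0.085. The median over the 8 genes ranged from -0.14 to 0.23, from -0.39 to 0.13 and from -0.375 to 0.162 in the 3 comparisons, and without Egr2, chosen after seeing the data, it was 0.02, -0.12 and -0.10. Over all genes, edgeR called 3, 0 and 3, DESeq2 49, 21 and 50, and limma-voom 2, 0 and 1. With only the 2 groups in the fit, CPIP+ETA against Sham+Veh gave 1, and with 1 library left out the counts ran from 1 to 3, stayed at 0, and ran from 1 to 2. The title numbers are not said to pair libraries. Same-numbered libraries' deviations correlated across genes at 0.04 (Sham+Veh with CPIP+Veh), 0.05 (CPIP+Veh with CPIP+ETA) and -0.11 (Sham+Veh with CPIP+ETA), and a replicate block left the medians at 0.04, -0.14 and -0.09 and the counts at 3, 0 and 3. When 1 library of a group was left out, the other was assumed to vary like the other groups. Counting error was small beside the gaps between libraries, and 2 libraries per group limit what can be told apart.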
